A study of Mus musculus with 42 samples.

Results

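The glutathione and antioxidant genes described here are 50 of the 40701 gene symbols in a sequencing study of the obstructed mouse kidney. They were taken by gene name: the glutathione S-transferases of the alpha, kappa, mu, omega, pi, theta and zeta classes, the glutathione peroxidases, the peroxiredoxins, the superoxide dismutases, and 12 further genes, among them those of glutathione synthesis, thiol repair and the Nrf2 pathway. Of the 50 genes, 43 had enough counts to be tested in proximal tubule RNA and 44 in total kidney RNA. The tested genes passed a filter on low counts, so counts over them do not speak for all 50.

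Cells remove superoxide with dismutases, which turn it into hydrogen peroxide, and remove hydrogen peroxide with catalase, peroxiredoxins and glutathione peroxidases. Glutathione, a tripeptide that contains cysteine, is the electron donor of most glutathione peroxidases and is joined to electrophiles by the transferases. The transcription factor Nrf2, encoded by Nfe2l2 and held back by Keap1, is known to drive many of these genes. The proximal tubule is known for its many mitochondria, for its glutathione turnover and as the main source of Gpx3, the glutathione peroxidase of plasma.

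The mice were 12 weeks old and of both sexes, and each state was measured in 4 male and 3 female libraries. The 3 states were obstructed kidneys at day 5 and at day 10 of unilateral ureteral obstruction (UUO) and contralateral kidneys, which the labels call healthy controls without naming a day. A contralateral kidney belongs to an animal whose other kidney is obstructed, so it is not the kidney of an untouched animal. In each state and sex 2 fractions were sequenced, which makes 12 groups and 42 libraries. The proximal tubule fraction (PT) was RNA from renal cortex that came down on beads carrying antibodies to GFP, which pulls down tagged ribosomes with the mRNA on them. The strain, the tagged allele and the promoter that drives it are not given in the sources used here, so a PT result holds for whichever cells carry the tag. Whether the RNA labelled as total kidney (Total) was taken before or after the beads is not given in the sources used here. Nothing in the labels says that libraries of a group came from separate animals, so p-values measure the spread between these libraries, which may be technical.

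The libraries held between 9.31 and 43.6 M counts, the median library 18.5 M. The label of the PT fraction was set beside 10 proximal tubule markers, none of them at 0 in a PT state. They summed to 8188 to 9904 counts per M (CPM) in contralateral PT, 1511 to 2740.4 at day 5 and 1104 to 4384 at day 10, and all 10 fell at both days. By the rule for a call given below, 0 of these 10 were higher in PT than in Total in contralateral kidneys. At day 5 there were 4 and at day 10 there were 6, and 0 were lower in any state. Of 5 markers of the S3 segment of the proximal tubule, 0 were higher and 2 lower in PT in each state. All 10 macrophage and all 10 fibroblast markers were lower in contralateral PT than in contralateral Total. Macrophage markers summed to 9.58 to 15.1 CPM in contralateral PT, 99.6 to 171 at day 5 and 135 to 318 at day 10, and 9 of 10 rose at both days. Fibroblast markers summed to 3.77 to 7.63, 29.7 to 57.9 and 52 to 93.1 CPM, and all 9 of the 10 that could be tested rose. Fewer cells of a type and less RNA per cell cannot be told apart in such samples, and the part of these shifts in the results below was not tested. Of the PT libraries, 9 of 21 had under 5500 CPM of Lars2, a mitochondrial leucyl-tRNA synthetase, as did 3 of 21 Total libraries. This limit was set after the data were seen, and it is used below.

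In contralateral kidneys these 50 genes took 14.9% ± 1.34 (SD, n = 7) of all counts of the PT libraries and 7.36% ± 0.993 (SD, n = 7) of those of Total. At day 5 the share was 7.23% ± 1.04 in PT and 3.21% ± 0.612 in Total, and at day 10 it was 7.34% ± 2.21 and 2.7% ± 0.838 (SD, n = 7 each). Gpx3 alone made up 12.2% ± 1.36 of contralateral PT counts, 4.36% ± 0.936 at day 5 and 4.6% ± 1.7 at day 10. In Total it made up 5.54% ± 1.06, 1.74% ± 0.54 and 1.38% ± 0.618 (SD, n = 7 each). The PT share of the 50 genes and that of Gpx3 fell by similar amounts, and in Total Gpx3 made up most of the fall. The fall of the share therefore does not speak for the other members.

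Levels can be compared between genes only per length, as reads per kilobase and M reads (RPKM). On that scale Gpx3 stood first in contralateral PT at 67162 ± 7496 RPKM, followed by Gpx1 at 11258 ± 1931, Prdx5 at 1599.9 ± 371, Sod1 at 1206 ± 1403 and Prdx1 at 681 ± 126 (SD, n = 7). The ranges of Gpx3 (53666 to 77470.2) and Gpx1 (7688 to 13957) lay apart from each other and from these 3, while that of Sod1 (372 to 3659.8) covered those of Prdx5 (1229 to 2335) and Prdx1 (547 to 865). At day 5 Gpx3 was at 24046 ± 5159 and Gpx1 at 15472 ± 4169 RPKM, and their ranges (16847 to 30922 and 11176 to 21615) overlapped.

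The design asks which genes differ between obstructed and contralateral kidneys in each fraction, at each day and in each sex. A gene was called where the Benjamini-Hochberg adjusted p of edgeR's quasi-likelihood test was under 0.05 and the change at least 2-fold, and every adjusted p below is from that test. Values after ± on a log2 fold change are standard errors, and levels from here on are CPM. In PT at day 5, 17 of 43 tested members were called, 4 higher and 13 lower, against 30.6% of all 14932 genes tested (18.2% higher and 12.4% lower). At day 10, 19 were called, 4 higher and 15 lower, against 31.7% of all genes (19.7% higher and 12% lower). The median log2 change of the tested members was -0.68 at both days, beside 0.05 over all genes.

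These counts depend on the scaling. With libraries scaled by total count only, the median of all genes moved to 0.52 at day 5 and 0.49 at day 10, and 83.2% and 82.9% of all called genes were higher in place of 59.6% and 62.2%. The members' calls then became 5 higher and 7 lower at day 5 and 4 higher and 6 lower at day 10. The changes below are those under the TMM scaling, which centres on the bulk of genes. Some of the falls called below are thus not called with libraries scaled by total count only, and they are not marked gene by gene.

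**Figure D1:**
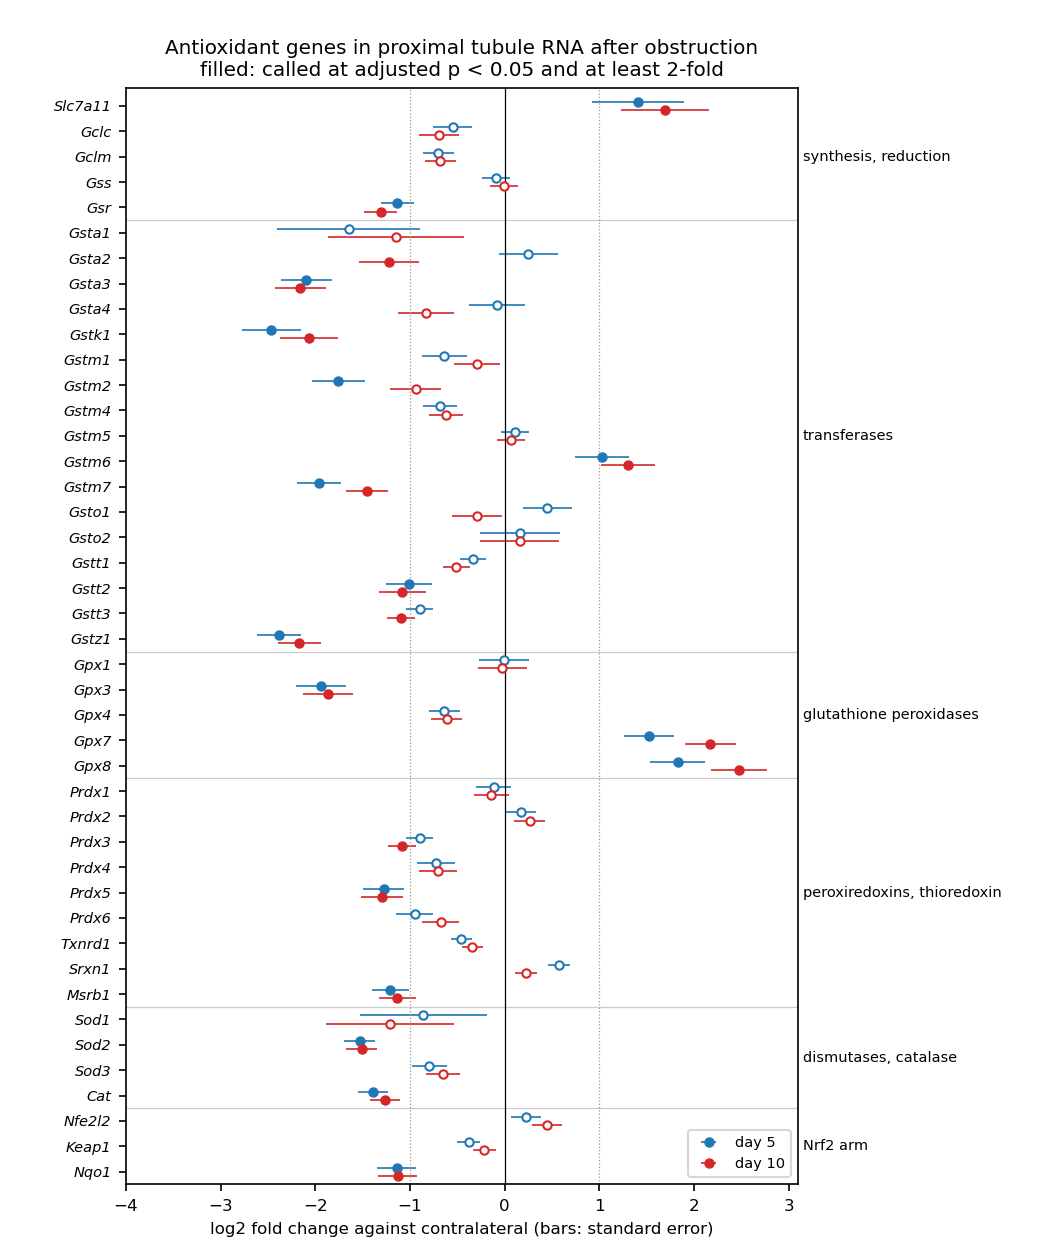
Log2 fold change of each of the 43 tested genes in PT at day 5 and day 10 against contralateral kidneys, with standard errors, grouped by role; filled points are called at an adjusted p under 0.05 and at least 2-fold. Gstk1, Gstz1 and Gsta3 lie farthest to the left among the called genes at both days, and Gpx8 and Gpx7 farthest to the right.

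Among the glutathione peroxidases the secreted Gpx3 fell and the cytosolic Gpx1 was not called. Gpx3 ran from 107606 to 179895 CPM in contralateral PT (median 153503), 25407 to 57881 at day 5 (median 35270.5) and 26153 to 80185 at day 10 (median 30183). No obstructed library reached the lowest contralateral one, and the log2 change was -1.94 ± 0.26 at day 5 (adjusted p = 2.77e-06) and -1.87 ± 0.26 at day 10 (adjusted p = 4.07e-06). At day 10 the males of replicates 1 to 4 were at 26153, 72509, 30183 and 80185 CPM and the females at 41694, 28389 and 29828, so 2 males lay well above the other 5 libraries. These males, of replicates 2 and 4, also had the highest proximal tubule marker sums of day 10 PT (3342 and 4384 CPM against 1104 to 2073 in the others) and lay over the Lars2 limit, as did the females of replicates 1 and 3, while the other 3 libraries were under it. The part of either in the levels of Gpx3 was not tested.

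Gpx1 lay at 9559 to 21006 CPM in contralateral PT, 9538 to 20804 at day 5 and 7108 to 25141 at day 10. These ranges overlapped, and the log2 difference was -0.01 ± 0.26 and -0.02 ± 0.26. Gpx4, which reduces lipid peroxides in membranes, was at 429.7 to 619 CPM in contralateral PT and 274 to 387 at day 5, with no overlap, but its difference of -0.64 ± 0.16 was short of 2-fold. Of the 50-base stretches of Gpx4 transcripts in GENCODE M21, 34.7% also occur elsewhere, mostly in a pseudogene, so the split of its reads is uncertain.

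**Figure D2:**
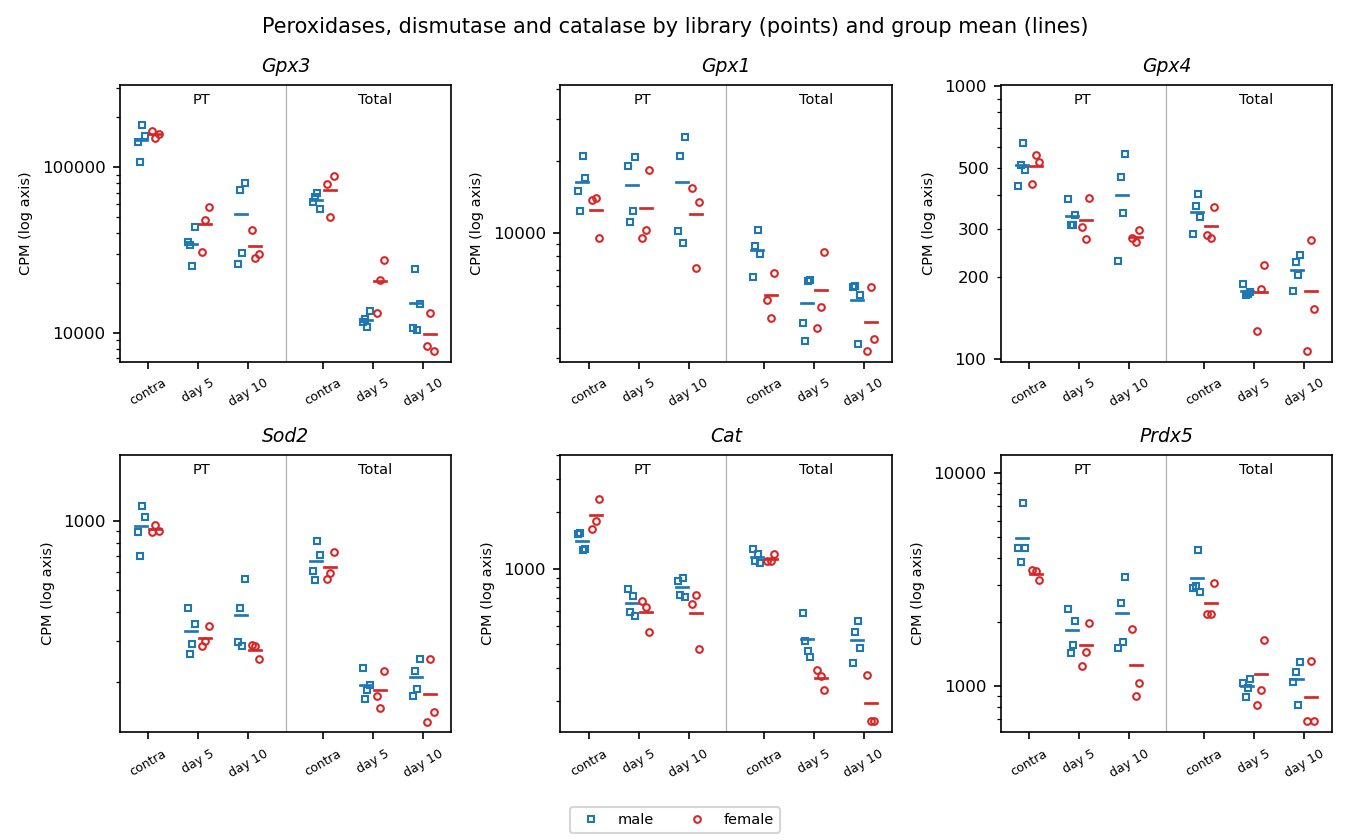
CPM (log axis) of Gpx3, Gpx1, Gpx4, Sod2, Cat and Prdx5 in every library of PT and Total by kidney state; squares are males, circles females and short lines group means. Gpx3, Sod2, Cat and Prdx5 step down between contralateral kidneys and day 5 in both fractions, whereas the Gpx1 ranges of the 3 PT states overlap.

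Gpx7 and Gpx8, peroxidases of the endoplasmic reticulum, rose. Gpx8 was at 1.24 to 4.73 CPM in contralateral PT (median 1.54), 4.58 to 12.3 at day 5 (median 6.41) and 5.56 to 24.8 at day 10 (median 7.76). Day 10 stood wholly above contralateral kidneys and day 5 overlapped them in a single contralateral female. The rise of Gpx8 was 1.83 ± 0.29 (adjusted p = 1.91e-05) and 2.48 ± 0.29 (adjusted p = 4.22e-07). Gpx7 was at 0.669 to 5.64 CPM in contralateral PT, 4.3 to 8.86 at day 5 and 5.06 to 18.4 at day 10, overlapping, with a rise of 1.53 ± 0.27 (adjusted p = 5.92e-05) and 2.17 ± 0.27 (adjusted p = 7.38e-07).

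In Total, Gpx8 was at 19.4 to 46.2 CPM in contralateral kidneys and 53.5 to 107 at day 10, and Gpx7 at 2.33 to 6.14 and 11.4 to 23.7, with no overlap between these states for either gene. In PT the female day 10 libraries of replicates 1, 2 and 3 were at 24.8, 6.4 and 24.8 CPM for Gpx8 and 14.1, 6.92 and 18.4 for Gpx7. The libraries of replicates 1 and 3 had the highest sums of fibroblast markers of all PT libraries, 76.6 and 93.1 CPM, against 56.2 in replicate 2. Their macrophage sums were 137 and 318 CPM, against 310.1 in replicate 2. The part of either cell type in the rise was not tested.

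Gpx6, a family member best known from olfactory tissue, was tested in Total and not in PT alone. It was at 4.06 to 32.9 CPM in contralateral Total kidneys, 0.669 to 2.22 at day 5 and 0.294 to 7.69 at day 10, a log2 change of -3.36 ± 0.69 (adjusted p = 4.74e-04) and -2.38 ± 0.65 (adjusted p = 0.00437). Day 5 lay below every contralateral library and day 10 overlapped them. Gpx2 and Gpx5 had 7 and 12 counts over all 42 libraries and were not tested.

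**Figure D3:**
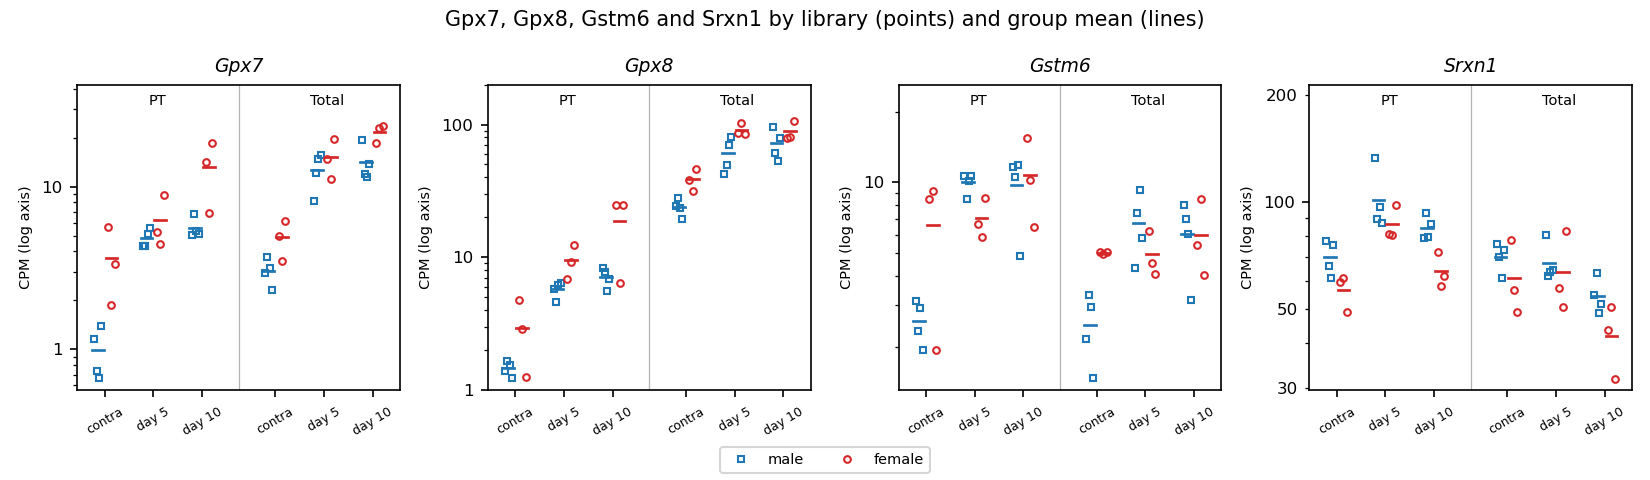
CPM (log axis) of Gpx7, Gpx8, Gstm6 and Srxn1 in every library of PT and Total by kidney state; squares are males, circles females and short lines group means. Gpx7 and Gpx8 are higher at day 10 than in contralateral kidneys in both fractions, and Gpx8 is lower in PT than in Total in all 3 states.

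Of the 21 transferase genes, the kappa and zeta enzymes had the largest called falls at day 5. Gstk1, a transferase of mitochondria and peroxisomes, ran from 85.9 to 328 CPM in contralateral PT (median 159), 25.8 to 49.97 at day 5 (median 31.6) and 21.2 to 98.9 at day 10 (median 43.3). Day 5 lay wholly below the contralateral libraries and day 10 overlapped them, with a log2 change of -2.46 ± 0.32 (adjusted p = 1.77e-06) and -2.07 ± 0.31 (adjusted p = 1.16e-05). Gstz1, the maleylacetoacetate isomerase of tyrosine breakdown, was at 645 to 1056 CPM in contralateral PT, 129 to 240.2 at day 5 and 116 to 465 at day 10, below at both days without overlap. Its change was -2.38 ± 0.23 (adjusted p = 3.32e-08) and -2.17 ± 0.23 (adjusted p = 9.65e-08). Exons of Gstz1 overlap those of Pomt2 on the other strand, and the strand setting of the counting is not given in the sources used here, so reads of that stretch cannot be assigned.

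Of the alpha class, Gsta3 fell, from 228 to 607 CPM in contralateral PT to 57.1 to 166 at day 5 (-2.09 ± 0.27, adjusted p = 1.83e-06) and 39.6 to 181 at day 10 (-2.16 ± 0.27, adjusted p = 1.19e-06). Neither day overlapped the contralateral range. Gsta1, Gsta2 and Gsta4 are described with the sexes. Of the theta class, Gstt2 was at 495 to 1064 CPM in contralateral PT, 237 to 464 at day 5 and 175 to 544 at day 10, a change of -1.01 ± 0.24 and -1.08 ± 0.25 (adjusted p = 0.00155 and 8.07e-04) near the 2-fold limit. The day 5 call of Gstt2 was lost in 12 of 32 alternatives and its day 10 call in 5. Gstt3 went from 77.6 to 162 CPM to 38.6 to 63.2 at day 10 (-1.09 ± 0.14, adjusted p = 1.96e-06), with no overlap, and was short of 2-fold at day 5 (-0.90 ± 0.14). Exons of Gstt3 overlap those of Gm20441 on the same strand, so reads of that stretch cannot be assigned. Gstt1 was not called (-0.33 ± 0.14 and -0.51 ± 0.14).

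The mu class went both ways. Gstm7 ran from 11.1 to 48.5 CPM in contralateral PT (median 20.3), 3.71 to 9.98 at day 5 (median 6.16) and 7.75 to 14.5 at day 10 (median 9.01), a change of -1.96 ± 0.23 (adjusted p = 4.19e-07) and -1.46 ± 0.22 (adjusted p = 1.34e-05). Day 5 was clear of the contralateral range and day 10 overlapped it. Gstm2 fell at day 5, from 4.56 to 17 CPM to 1.21 to 4.26 (-1.76 ± 0.28, adjusted p = 1.95e-05), without overlap, and at day 10 was at 2.03 to 6.52 (-0.94 ± 0.27, under 2-fold).

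Gstm6 rose, from 1.93 to 9.22 CPM (median 2.93) to 5.89 to 10.7 at day 5 (1.03 ± 0.29, adjusted p = 0.00451) and 4.84 to 15.5 at day 10 (1.31 ± 0.29, adjusted p = 5.55e-04). The ranges overlapped, since 2 contralateral females were at 8.54 and 9.22 CPM. Its day 5 value was 0.97 without the contralateral male of replicate 4, 0.80 without the contralateral female of replicate 3 and 0.94 without the day 5 female of replicate 3, each under 2-fold.

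The other tested mu and omega genes were not called in PT. At day 5 and day 10 the log2 differences were -0.64 and -0.29 for Gstm1, -0.68 and -0.62 for Gstm4, and 0.11 and 0.07 for Gstm5. They were 0.45 and -0.29 for Gsto1 and 0.16 and 0.16 for Gsto2. Gstm3 with 143 counts and Gstt4 with 35 were too low to test. The pi class had 1 count of Gstp1 in 42 libraries and 0 of Gstp2. A 0 in 1 library, taken alone, allows an expected count of up to 3 in that library. Of the 50-base stretches of their transcripts, 33.7% of Gstp1 and 54.3% of Gstp2 also occur in other genes, so how their reads were counted is uncertain.

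Of the genes of glutathione synthesis, none was called in PT. Gclc and Gclm, the catalytic and modifier subunits of the rate-limiting ligase, differed by -0.55 ± 0.21 and -0.70 ± 0.16 at day 5 and by -0.70 ± 0.21 and -0.68 ± 0.16 at day 10, all under 2-fold. Gss, the synthetase of the following step, was at 211 to 486 CPM in contralateral PT, 227 to 343 at day 5 and 210.1 to 402 at day 10, ranges that overlapped (-0.09 ± 0.15 and -0.01 ± 0.15). Exons of Gss overlap those of Acss2 on the other strand, and exons of Gclm overlap those of Gm6061 on the same strand. Gsr, the reductase that regenerates glutathione, fell from 184 to 429 CPM to 103 to 166 at day 5 (-1.13 ± 0.17, adjusted p = 1.32e-05) and 79.3 to 167 at day 10 (-1.31 ± 0.17, adjusted p = 2.07e-06), with no overlap. Without the contralateral female of replicate 3 the day 5 value of Gsr was -0.99.

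Slc7a11, the carrier that brings in cystine, was called higher (1.41 ± 0.49 and 1.69 ± 0.47, adjusted p = 0.0194 and 0.0041), but its PT libraries held 0 to 16 counts each. Levels were 0 to 0.199 CPM in contralateral PT, 0.14 to 0.565 at day 5 and 0.072 to 0.618 at day 10, which overlapped. Without the contralateral female of replicate 2 the day 5 value was 1.12 and not called. In Total, Slc7a11 was at 0.7 to 1.8 CPM at day 10 against 0 to 0.246, with no overlap (3.27 ± 0.46, adjusted p = 1.69e-06).

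Of the peroxiredoxins, Prdx5 and Prdx3 were called. Prdx5, found in mitochondria and peroxisomes, ran from 3140.0 to 7221 CPM in contralateral PT (median 3823), 1247 to 2301 at day 5 (median 1559) and 901 to 3243 at day 10 (median 1618). Its change was -1.28 ± 0.22 (adjusted p = 4.78e-05) and -1.30 ± 0.22 (adjusted p = 3.71e-05), clear of the contralateral range at day 5, while at day 10 a single male library reached into it. Exons of Prdx5 overlap those of Trmt112 on the other strand, and exons of Prdx2 overlap those of Junb and Rnaseh2a there. Prdx3, the mitochondrial enzyme, was at 536 to 800.0 CPM in contralateral PT, 283 to 400.0 at day 5 and 204 to 391 at day 10, below without overlap at both days. It passed 2-fold at day 10 (-1.09 ± 0.15, adjusted p = 2.16e-06) and not at day 5 (-0.90 ± 0.14). Not called at either day were the cytosolic Prdx1 (-0.12 and -0.14) and Prdx2 (0.17 and 0.27), Prdx4 of the endoplasmic reticulum (-0.73 and -0.70) and Prdx6 (-0.95 and -0.68).

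Msrb1, a selenoprotein that repairs oxidized methionine, fell from 117 to 450.3 CPM in contralateral PT to 67.6 to 153 at day 5 (-1.21 ± 0.20, adjusted p = 2.62e-05) and 46.6 to 189 at day 10 (-1.13 ± 0.20, adjusted p = 4.77e-05), with overlap at both days. Txnrd1, the cytosolic thioredoxin reductase, differed by -0.46 ± 0.11 and -0.34 ± 0.11, under 2-fold. Srxn1, sulfiredoxin, which restores overoxidized peroxiredoxins, was the only tested member whose day 5 PT libraries all lay above its contralateral range, at 80.6 to 133 CPM against 49 to 77.6. The share of all genes lying wholly above in this way was not taken. The difference of Srxn1 was 0.57 ± 0.12 (adjusted p = 3.99e-04), under 2-fold, and at day 10 it was 0.23 ± 0.12. With libraries scaled by total count only, the day 5 difference of Srxn1 was 1.04 and was called.

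The dismutase of mitochondria and the catalase of peroxisomes both fell. Sod2 ran from 705 to 1152 CPM in contralateral PT (median 901), 263 to 418 at day 5 (median 299.8) and 252 to 556 at day 10 (median 289.5), below without overlap (-1.53 ± 0.16, adjusted p = 1.28e-07, and -1.51 ± 0.16, adjusted p = 1.38e-07). Cat ran from 1257 to 2330.3 CPM (median 1553), 463 to 784 (median 628) and 375 to 891 (median 729), again without overlap (-1.39 ± 0.16, adjusted p = 3.53e-07, and -1.26 ± 0.16, adjusted p = 1.13e-06). Other genes share 21% of the 50-base stretches of Sod2 transcripts, so the split of Sod2 reads is uncertain. Sod3, the extracellular dismutase, was at 232 to 362 CPM in contralateral PT and 105 to 188 at day 5, apart but under 2-fold (-0.80 ± 0.18), and at day 10 differed by -0.65 ± 0.18.

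Sod1, the cytosolic copper-zinc dismutase, fell into 2 levels within each PT state. In contralateral PT the males of replicates 1 to 4 were at 326, 2615, 348 and 343 CPM and the females of replicates 1 to 3 at 284, 335 and 2156. The 2 high libraries were those under 5500 CPM of Lars2. At day 5 the 4 libraries under that limit had 547 to 873 CPM of Sod1 and the other 3 had 170.5 to 234, and at day 10 the 3 under it had 573 to 946 and the other 4 had 109 to 298. In Total the 2 day 5 libraries under the limit had 574 to 728 CPM against 92.1 to 158 in the other 5, and the single day 10 library under it had 594 against 97.7 to 191 in the other 6. Gpx1 lay on the opposite side in PT, at 13509 to 25141 CPM over the limit and 7108 to 12393 under it. Why the libraries differ in this way was not tested.

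Without regard to the split Sod1 differed by -0.86 ± 0.67 at day 5 and -1.21 ± 0.68 at day 10 in PT (adjusted p = 0.295 and 0.142) and was not called. With a term for the split the Sod1 values were -1.15 ± 0.16 and -1.16 ± 0.16 in PT and -1.10 ± 0.16 and -1.05 ± 0.15 in Total, all called. The limit was set after the data were seen and parts Sod1 fully within a state, so the term shrinks its spread by construction. These calls are therefore no separate support for a fall. Within the PT libraries over the limit the values were -0.79 and -0.83, short of 2-fold, and within those under it -1.71 and -1.77. Under the limit, the male of replicate 2 and the female of replicate 3 were the only contralateral PT libraries.

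**Figure D4:**
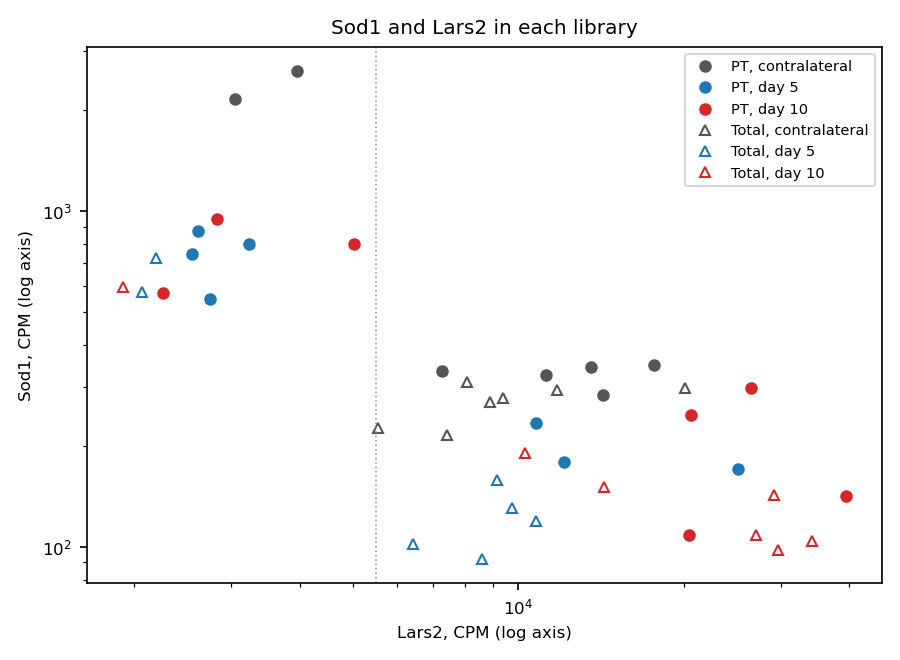
Sod1 against Lars2, both in CPM on log axes, in each of the 42 libraries, marked by fraction and kidney state. The dotted line marks 5500 CPM of Lars2, and every library to its left has more Sod1 than every library of the same fraction and state to its right.

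In the Nrf2 arm, Nqo1, a quinone reductase widely used as a readout of Nrf2, fell. It was at 56.7 to 100.2 CPM in contralateral PT (median 81.4), 24 to 68.3 at day 5 (median 38.3) and 12.9 to 72.5 at day 10 (median 43.3), overlapping at both days. The change was -1.14 ± 0.21 (adjusted p = 8.73e-05) and -1.13 ± 0.21 (adjusted p = 8.57e-05). Without the day 10 female of replicate 3 the day 10 value was -0.99. The day 10 value of Nqo1 averages males and females, and Nqo1 was lower in females at that day, as given below. It therefore does not describe either sex alone. Nfe2l2 itself was at 96.1 to 171 CPM in contralateral PT, 126 to 239.7 at day 5 and 143 to 224 at day 10, overlapping, with differences of 0.23 ± 0.16 and 0.45 ± 0.16 under 2-fold. Keap1 was not called (-0.38 ± 0.12 and -0.22 ± 0.12).

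The promoters of the members were searched on both strands for TGACNNNGC, the core of the antioxidant response element through which Nrf2 is known to act. The windows were 300 bases around each start site (250 before, 50 after), from RefSeq on GRCm38.p6; the build of the counts is not given in the sources used here. Of the 50 members, 44 had a promoter in that table, and 9 of them (20.5%) held the core, against 3781 of 27025 genes (14%). The sequences below set genes with the core beside how they moved, with the core in capitals and the letters read 5′ to 3′ on the gene's strand. Gsta3 (chr1:21240434-21240502, plus strand) and Gstm7 (chr3:107931705-107931773, minus strand) fell in PT. Gclm (chr3:122245393-122245461, plus), Txnrd1 (chr10:82859084-82859152, plus) and Prdx1 (chr4:116685436-116685504, plus) were not called there, and in these 3 the core reads on the opposite strand.
Gsta3: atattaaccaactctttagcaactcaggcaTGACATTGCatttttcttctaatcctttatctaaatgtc
Gstm7: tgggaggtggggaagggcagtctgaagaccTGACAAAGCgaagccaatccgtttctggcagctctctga
Gclm: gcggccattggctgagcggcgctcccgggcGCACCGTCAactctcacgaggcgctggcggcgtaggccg
Txnrd1: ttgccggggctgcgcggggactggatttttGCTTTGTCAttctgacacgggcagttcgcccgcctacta
Prdx1: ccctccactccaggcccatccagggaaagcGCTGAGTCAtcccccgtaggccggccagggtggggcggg
The other 4 members with the core were Gstm5, Nfe2l2, Sod1 and Srxn1, in the last of them after the start site. A match of letters is a description and marks no binding.

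Further genes of the pathway stood on lists, described by their counts in PT at day 5 against 18.2% of all genes called higher and 12.4% lower. The lists were chosen with earlier results of these data known, so setting them against these shares is a description and no test. Of 21 tested Nrf2 targets outside the members, 5 were higher and 3 lower, with a median log2 change of -0.01. Among them Akr1b8, an aldo-keto reductase (4.76), and the transporters Abcc3 (2.44) and Abcc1 (2.43) rose, and Osgin1 (-1.86) and the ferritin chains Ftl1 (-1.70) and Fth1 (-1.10) fell, each on the log2 scale. Of 9 regulators of Nrf2, Maff, a small Maf protein, was the single call (4.74). Of 7 genes of the methionine cycle and of cysteine metabolism, 6 fell, with a list median of -1.72. The largest falls were those of Bhmt (-5.37), which returns homocysteine to methionine, Gnmt (-3.38) and Ahcy (-2.39). The others, named after their values were seen, were Cbs (-1.52) and Cth (-1.48), which make cysteine from homocysteine, and Cdo1 (-1.72), which breaks cysteine down.

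Of 17 tested genes of glutathione use and breakdown, 2 rose and 6 fell, with a list median of -0.65. The largest falls were those of Dpep1 (-4.71) and Ggt1 (-2.17), brush border enzymes that break glutathione down outside the cell, and of Hagh (-1.47), a glyoxalase. The rises were Chac1 (2.17), which degrades glutathione inside the cell, and Mgst1 (1.15), a microsomal transferase. Chac2, a relative of Chac1, fell (-1.15). Of 10 tested genes of the thioredoxin and methionine sulfoxide system, 3 rose, Msrb3 (2.51), Txnip (2.10) and Sesn3 (1.53), and 0 fell, with a list median of -0.22. At day 10, 3 of them rose and 2 fell, Msra (-1.02) and Msrb2 (-1.07). Of 10 genes of selenoproteins and of their synthesis, Sepw1 rose (1.27), with a list median of -0.72. Dio1 (-2.07), Sepp1 (-1.44) and Sepsecs (-1.15), an enzyme of selenocysteine synthesis, fell.

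Between day 10 and day 5 a single member was called in PT, Gsta2, against 0.442% of all genes (0.422% higher and 0.0201% lower). Gsta2 was at 237 to 588 CPM at day 5 (median 474) and 71.9 to 298 at day 10 (median 81.1), overlapping, a difference of -1.47 ± 0.32 (adjusted p = 0.0405). In Total it was likewise the single call (0.393% of all genes, 0.352% higher and 0.0417% lower), at 105 to 244 against 31 to 143 CPM (-1.41 ± 0.31, adjusted p = 0.0407). Leaving out each library in turn ended the call of Gsta2 in PT for 12 of 21 libraries, at values from -1.53 to -1.27, and in Total for 14 of 21, at values from -1.47 to -1.21. Against contralateral kidneys the PT change of Gsta2 was 0.25 ± 0.31 at day 5, not called, and -1.22 ± 0.32 at day 10 (adjusted p = 0.00265), the latter -0.93 without the contralateral male of replicate 1. Of the 50-base stretches of Gsta2 transcripts, 49.8% also occur in Gsta1 and other copies, so the split of reads among them is uncertain.

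In Total at day 5, 21 of 44 tested members were called, 3 higher and 18 lower, against 32.5% of all genes (19.2% higher, 13.3% lower). At day 10, 22 were called, 3 higher and 19 lower, against 34.6% (20.9% and 13.8%). With libraries scaled by total count only, the calls were 5 higher and 9 lower at day 5 and 4 higher and 12 lower at day 10, and 80.4% and 76% of all called genes were higher in place of 59.1% and 60.3%. The 3 higher were Gpx7, Gpx8 and Slc7a11 at both days. Gpx3 was at 50066 to 89074 CPM in contralateral Total kidneys, 10798 to 27469 at day 5 and 7814 to 24415 at day 10, with no overlap (-2.12 ± 0.24, adjusted p = 5.95e-08, and -2.48 ± 0.24, adjusted p = 4.77e-09).

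Gclm was called in Total, at 176 to 418 CPM against 85.5 to 214 at day 5 (-1.22 ± 0.17, adjusted p = 1.40e-06) and 106 to 209 at day 10 (-1.01 ± 0.17, adjusted p = 1.51e-05), overlapping at both. The day 10 value of Gclm was -0.98 with the replicate number as a block, under 2-fold. Gsta4 fell in Total at both days (-1.36 ± 0.22 and -1.63 ± 0.22), from 71.1 to 353 CPM to 35.4 to 113 and 21.9 to 131, with overlap, and Sod3 fell at day 10 (-1.18 ± 0.18).

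PT set against Total asks which of these genes are richer in the bead-bound RNA. In contralateral kidneys 8 of 44 tested members were called, 4 higher and 4 lower in PT, against 24.1% of all genes (1.16% higher and 22.9% lower). Higher in PT were Gpx1 (1.35 ± 0.24), Gpx3 (1.44 ± 0.23), Msrb1 (1.52 ± 0.21) and Sod1 (2.08 ± 0.61), the last under 2-fold (0.77 ± 0.16) with a term for the Lars2 split. Lower in PT were Gpx8 (-3.59 ± 0.25), Gpx6 (-4.82 ± 0.76), Gstm2 (-2.60 ± 0.23) and Gsto2 (-1.33 ± 0.33).

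At day 5, 14 members were called between the fractions, 10 of them higher in PT, against 27.8% of all genes (4.02% higher and 23.8% lower). At day 10 there were 17, 13 of them higher, against 30.1% (7.07% higher and 23% lower). Cat (1.15 ± 0.16 and 1.57 ± 0.16), Gpx4 (1.16 ± 0.16 and 1.10 ± 0.16), Gsta3 (1.25 ± 0.23 and 1.37 ± 0.23) and Sod2 (1.02 ± 0.15 and 1.08 ± 0.15) were among those higher in PT at both days. With libraries scaled by total count only, 9 and 10 members were called, 4 and 6 of them higher.

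Whether obstruction changed PT and Total by different amounts was tested as an interaction. By day 5, 2 of 44 members were called, against 4.27% of all genes (3.02% higher and 1.24% lower). The change of Gsta4 was 1.25 ± 0.38 more positive in PT than in Total (adjusted p = 0.0449), being -0.08 ± 0.29 in PT and -1.36 ± 0.22 in Total. The PT value of Gsta4 averages males, in which it rose, and females, in which it fell, as given below, so it does not mean an unchanged level. The change of Gstm2 was more negative in PT (-1.26 ± 0.32, adjusted p = 0.00989), being -1.76 ± 0.28 in PT and -0.52 ± 0.17 in Total. By day 10 Gpx8 was the single call, against 5.76% of all genes (4.68% higher and 1.08% lower), with a rise larger in PT by 1.10 ± 0.32 (adjusted p = 0.0236), 2.48 ± 0.29 against 1.41 ± 0.16.

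For each of these 3 calls there were single libraries whose removal ended it. That of Gsta4 was lost without any of 13 libraries, at values from 1.09 to 1.31. Gstm2 was at -1.03 without the day 5 Total female of replicate 3 and -1.05 without the day 5 PT female of replicate 1. Gpx8 was at 0.84 without the day 10 Total male of replicate 3, at 0.92 without the contralateral PT female of replicate 3 and at 0.98 without the day 10 PT female of replicate 1.

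Between the sexes, 6 of 43 tested members were called in contralateral PT, all higher in females, against 4.13% of all genes (2% higher and 2.13% lower in females). Gsta4, which conjugates products of lipid peroxidation, was at 24.7, 14.5, 16.5 and 9.9 CPM in the 4 males and 398, 478 and 162 in the 3 females, far apart (4.4 ± 0.45, adjusted p = 1.89e-06). Gsta2 was at 279, 93.8, 96 and 88 CPM in males and 952, 976 and 665 in females (2.63 ± 0.45, adjusted p = 8.24e-04). Gstm7 was at 17.7, 11.1, 20.3 and 19.1 CPM in males and 44.5, 48.5 and 28.8 in females (1.25 ± 0.31, adjusted p = 0.017). For these 3 genes no male library reached the lowest female.

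The other 3 were Gsto1, Gpx7 and Prdx4. Gsto1, which reduces dehydroascorbate, was at 67.4, 22.4, 31 and 30.1 CPM in contralateral PT males and 174, 96.3 and 75.5 in females (1.61 ± 0.37, adjusted p = 0.00997). Gpx7 was at 1.16, 0.734, 0.669 and 1.39 and at 5.64, 1.87 and 3.36 (1.85 ± 0.38, adjusted p = 0.00453). Prdx4 was at 40.7, 25, 23.5 and 27.1 and at 81.8, 52.7 and 48.3 (1.07 ± 0.28, adjusted p = 0.0277). The sexes did not overlap for any of the 3, and the female of replicate 1 was highest for each.

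Without that female the values were 1.38 for Gpx7, 1.18 for Gsto1, 0.80 for Prdx4 and 1.18 for Gstm7, none called. Gstm7 also lost its call without the female of replicate 2 (1.10), and Prdx4 without the males of replicate 2 (1.00), 3 (0.99) or 4 (1.05). Gsta2 and Gsta4 kept their calls without any single PT library.

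**Figure D5:**
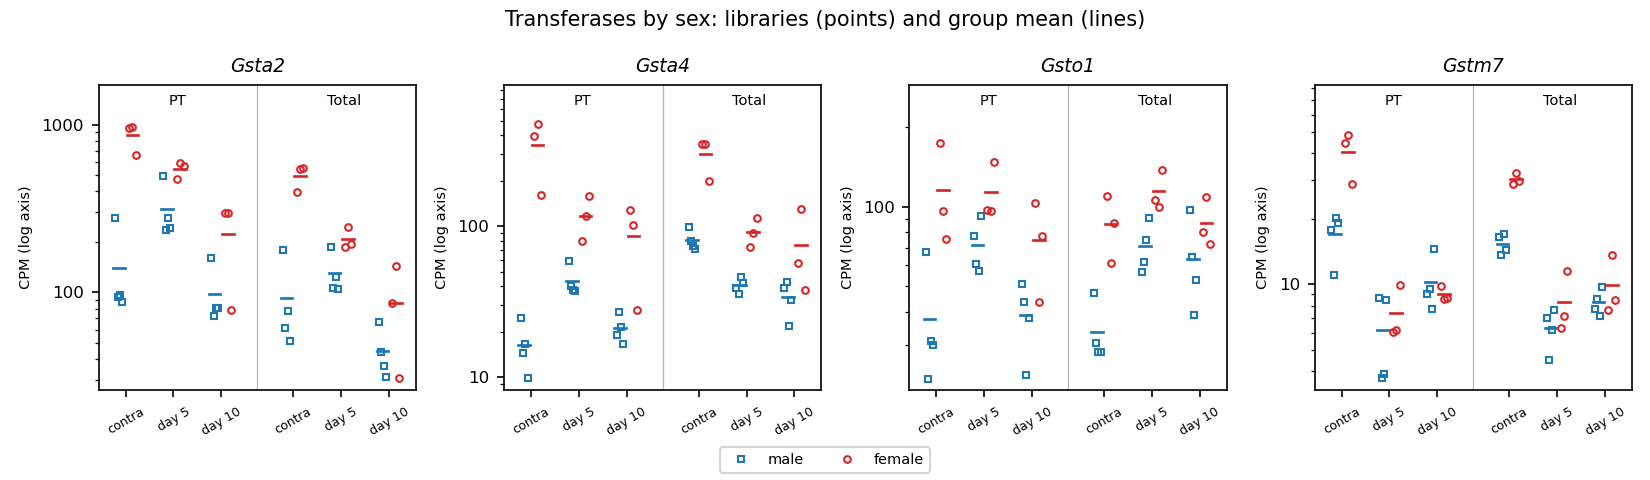
CPM (log axis) of Gsta2, Gsta4, Gsto1 and Gstm7 in every library of PT and Total by kidney state; squares are males, circles females and short lines group means. In contralateral PT all females lie above all males for each gene, and at day 5 the PT sexes overlap for Gsta2 and Gstm7.

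In contralateral Total kidneys 5 of 44 members were called between the sexes, against 2.76% of all genes (1.17% higher and 1.6% lower). Gsta4 was at 99.3, 79.9, 74.1 and 71.1 CPM in males and 350.2, 353 and 198 in females (1.89 ± 0.30, adjusted p = 4.24e-04). Gsta2 (2.43 ± 0.44, adjusted p = 0.00205), Gsto1 (1.35 ± 0.27, adjusted p = 0.00306) and Gsto2 (1.21 ± 0.31, adjusted p = 0.0242) were also higher in females. Gsta2 was at 179.7, 61.1, 77.4 and 51.6 CPM in males and 398, 543 and 553 in females, Gsto1 at 47.3, 30.7, 28.3 and 28.3 and 109, 61.1 and 86.6, and Gsto2 at 1.54, 1.27, 1.55 and 1.87 and 3.66, 3.21 and 3.93. For none of the 3 did the sexes overlap. Msrb1 was at 127, 131, 205 and 145 CPM in males and lower, at 56.6, 72.2 and 68.2, in females (-1.21 ± 0.29, adjusted p = 0.0171). Leaving out any of 6 libraries, which were every contralateral Total library but the male of replicate 4, ended the call of Gsto2 (1.12 to 1.28). The call of Msrb1 ended without the male of replicate 3 or without any of the females (-1.29 to -1.03).

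At day 5 edgeR called 0 members between the sexes, in PT (against 0.851% of all genes, 0.275% higher and 0.576% lower) and in Total (0.429%, 0.149% and 0.28%). At an unadjusted p under 0.05 there were 5 in PT and 12 in Total, and DESeq2 called 1 in each. The shares of all genes just given are for edgeR's calls and do not apply to these counts, which therefore do not set the members apart from other genes. At day 5 Gsta4 was at 58.8, 40.3, 37.5 and 37 CPM in PT males and 79.6, 116 and 158 in females, apart, with a difference of 1.44 ± 0.41 (adjusted p = 0.128).

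At day 10, 4 members were called between the sexes in PT, against 2.22% of all genes (0.676% higher and 1.55% lower). Gsta4 was higher in females (2.03 ± 0.42, adjusted p = 0.00954), at 128, 101 and 27.8 CPM against 19, 27, 21.5 and 16.5 in males, with no overlap. Nqo1 was lower in females (-1.35 ± 0.30, adjusted p = 0.015), at 24.2, 31.5 and 12.9 CPM against 62, 54.6, 72.5 and 43.3. Msrb1 was lower too (-1.23 ± 0.28, adjusted p = 0.019), at 67.3, 95.3 and 46.6 CPM against 182, 120.0, 161 and 189, and for neither gene did the sexes overlap. Gclc was at 84, 49.3 and 42.3 CPM in females and 77.9, 169, 116 and 179 in males, which overlapped (-1.22 ± 0.31, adjusted p = 0.0344). Proximal tubule markers summed to 1889, 1576 and 1104 CPM in these females, below the 2072 to 4384 of the males, and macrophage markers to 137, 310.1 and 318 CPM against 135 to 200.1. Their part in these sex differences was not tested.

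Each of these PT calls was lost without some single library. Without the day 10 female of replicate 1 the values were -1.38 for Nqo1, 1.63 for Gsta4 and -1.20 for Msrb1. Without the female of replicate 3 they were -1.06 for Nqo1, -1.01 for Msrb1 and -1.03 for Gclc. Without the male of replicate 4 they were -1.15 for Msrb1 and -1.05 for Gclc, which was at -1.09 without the male and -1.11 without the female of replicate 2.

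In Total at day 10, 2 members were called between the sexes, both lower in females, against 1.13% of all genes (0.107% higher and 1.02% lower). Nqo1 differed by -1.18 ± 0.27 (adjusted p = 0.023) and Cat by -1.11 ± 0.23 (adjusted p = 0.0105). Cat was at 317, 462, 529 and 384 CPM in males and 273, 158 and 157 in females, without overlap, and Nqo1 at 36.8, 46.2, 44.4 and 34.5 and 20.6, 23.9 and 9.28, also without overlap. Proximal tubule markers summed to 1056, 812 and 559.8 CPM in these females against 994 to 2216 in males, and macrophage markers to 1492, 2272 and 2557 against 1332 to 1675. Their part in the sex differences of Nqo1 and Cat was not tested. Without the female of replicate 3 Nqo1 was at -0.86 and Cat at -0.98, and without the male of replicate 3 they were at -1.13 and -0.99, not called. Nqo1 also lost its call without the male of replicate 2 (-1.11) and Cat without the female of replicate 2 (-0.98).

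The response to obstruction was compared between the sexes as an interaction in PT. By day 5 Gsta4 was the single call (-2.96 ± 0.60, adjusted p = 0.0283), against 0.502% of all genes (0.295% higher and 0.208% lower). It rose in males by 1.4 ± 0.39 (adjusted p = 0.00729) and fell in females (-1.56 ± 0.45, adjusted p = 0.0107). Without any of 7 libraries the interaction was no longer called, at values from -2.99 to -2.65. Gsta2 rose in males (1.17 ± 0.41, adjusted p = 0.028) and was at -0.67 ± 0.47 in females, and its interaction was not called (-1.84 ± 0.63, adjusted p = 0.312). The male rise of Gsta2 was 0.86 without the day 5 male of replicate 1. By day 10 edgeR called 0 interactions among members, against 0.208% of all genes (0.161% higher and 0.0469% lower), with 11 at an unadjusted p under 0.05 and 1 call by DESeq2. Those shares are for edgeR's calls and do not apply to the counts of 11 and 1.

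Counted within each sex, 19 members were called in PT males at day 5 (28.2% of all genes) and 18 in females (26.6%), and at day 10, 12 in males (26.1%) and 20 in females (30.6%). The difference between these counts was not tested beyond the interactions. Gpx3, Gpx8, Gsr, Gsta3, Gstk1, Gstz1, Prdx5 and Sod2 were called in both sexes at both days. The share of all genes called in both sexes at both days was not taken, so this list has nothing to be set against. Gpx3 changed by -2.08 ± 0.34 in males and -1.80 ± 0.39 in females at day 5, and by -1.48 ± 0.34 and -2.25 ± 0.40 at day 10. Gstm6 rose in males at both days (1.95 ± 0.38 and 1.91 ± 0.38) and in females differed by 0.11 ± 0.43 and 0.71 ± 0.42, not called.

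Gsta1 was at 0.381, 0.602 and 22.1 CPM in the contralateral PT females and at 0.573, 0.14 and 20.03 in the Total females of the same state. No other library of either fraction was above 2.65 CPM. The falls of Gsta1 called in PT females (-3.89 ± 1.21 at day 5 and -3.03 ± 1.12 at day 10) and in Total at day 5 (-2.76 ± 0.90) rest on the contralateral female of replicate 3. Without it the values were 0.05 and 0.91 in PT females and -0.68 in Total. Of the 50-base stretches of Gsta1 transcripts, 90.5% also occur in Gsta2 and other copies.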

How the data were processed

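RNA of the bead-bound proximal tubule fraction and of total kidney was sequenced in 42 libraries. The authors deposited raw counts per gene and RPKM values for the same genes. Per the submitters' processing notes the tools were STAR 2.0.4b, Subread and featureCounts 1.4.5; the genome build, annotation and strand setting are not given in the sources used here. The deposited RPKM served only to compare genes. Groups came from the labels, and all columns matched a sample. Counts were fitted with edgeR 4.0.16 (TMM scaling, filterByExpr, robust quasi-likelihood test; R 4.3.3, limma 3.58.1) over the 21 PT libraries, the 21 Total libraries or all 42, with 14932, 16782 and 17110 genes tested. A call needs a change of 2-fold or more and a p under 0.05 after Benjamini-Hochberg adjustment. CPM are on TMM-scaled library sizes. Standard errors are the absolute log2 change over the square root of the F statistic. On simulated counts the PT day 5 fit recovered 54% of genes changed 2-fold and 86% of those changed 4-fold. Recovery there meant an adjusted p under 0.05 with no fold minimum, so recovery under the rule for a call was not measured. Only 100 genes of each size among 14580 were changed, far fewer than were called in the data.

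The members and lists were chosen with earlier results of these data known. Every member is accounted for by role, those called in a PT state, sex or fraction-by-day comparison are named with values, and those called within a sex partly by count. From a list at most 3 genes each way are named by the size of their change. Cbs, Cth, Cdo1 and Chac2 were named beyond that rule. Libraries of a group were compared in 54 pairs, and none looked like a repeat deposit (chi-square per degree of freedom 16.3 to 327). Same-numbered libraries deviated together in 7 of 7 pairs, each with a correlation over 0.1, between PT and Total in contralateral kidneys (0.36 to 0.65) and at day 10 (0.13 to 0.82), and between contralateral and day 10 Total (0.12 to 0.43); the labels do not say what a number marks. In the other pairs of states 2 to 5 of 7 were over 0.1, short of the rule of every pair. Alternatives were other scalings and filters, DESeq2 1.42.0, the compared groups only, a Lars2 covariate, a replicate block and leaving out each library. Those on the 5500 CPM limit of Lars2 were added after the data were seen.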

Additional observations from a re-analysis of the deposited data

Results flagged for a closer look

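Of 162 groups of 4 male libraries over 27 genes, 9 had a library far from the other 3, by a rule that flags about 1 in 20 by chance. Sod1 was added to these genes by choice. The same libraries recur over the genes, so the groups are not independent and their number cannot tell whether chance explains it. The male of replicate 1 was far from the others for Gsta2 in all 3 PT states, at 279 CPM against 88 to 96 in contralateral kidneys, 495 against 237 to 277 at day 5 and 160 against 71.9 to 81.1 at day 10. It also stood apart for Gsta4 at day 5 in PT, at 58.8 CPM against 37 to 40.3. In contralateral Total, the male of replicate 1 was high for Gsto1, at 47.3 CPM against 28.3 to 30.7, and low for Gsta1, at 0.067 against 0.985 to 1.11. The contralateral Total male of replicate 3 had 4357 CPM of Prdx5 against 2760 to 2946. For Sod1, the contralateral PT male of replicate 2 was at 2615 CPM against 326 to 348, and the day 10 Total male of replicate 3 at 594 against 109 to 191; both are libraries under 5500 CPM of Lars2.

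By a test of the difference itself, 4 changes with obstruction differed between groups. The change of Gsta4 by day 5 was 1.25 more positive in PT than in Total and -2.96 in PT females minus males. The change of Gstm2 by day 5 was -1.26 in PT minus Total, and that of Gpx8 by day 10 was 1.10.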

How the results depend on the processing

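The counts of members called kept within 1.5 times under the replicate block, which gave 17 at day 5 and 19 at day 10 in PT and 22 and 21 in Total. Where the numbers pair the libraries, the block ended the call of Gclm in Total at day 10 (-0.98) and no other. Without the fold minimum, calls were 30 and 31 in PT at day 5 and day 10, 34 and 37 in Total, 29, 30 and 34 between PT and Total in the 3 states, and 5 for the PT minus Total change by day 10. With library size only they were 10 in PT at day 10, 0 between day 10 and day 5 in PT, 9 and 10 between PT and Total at the 2 days, and 7 in PT males at day 10. The call between day 10 and day 5 in PT was 0 with no filter on low counts, with the 5 CPM filter, with the term for the Lars2 limit and within the libraries over or under it; in Total it was 0 with no filter, the Lars2 covariate and the term. The PT minus Total calls were 1 by day 5 and 0 by day 10 with RLE size factors and with no filter, and 0 by day 10 with DESeq2 and with the compared groups only. Between females and males the compared groups alone gave 3 in contralateral PT, 1 at day 5 and 0 at day 10 in PT, and 1 and 0 in Total; DESeq2 gave 1 at day 5 and 7 at day 10 in PT, 1 at day 5 in Total and 1 for the sex difference in change by day 10. The Lars2 covariate gave 7, 0 and 2 for PT day 10, Total day 10 and that difference in change, and the term gave 7, 1 and 2. The cause of these moves was not tested. The shares of all genes given in the Results are for the main rule and do not apply to these counts. Leaving out 1 library gave 15 to 19 and 18 to 21 in PT, 19 to 23 and 20 to 24 in Total, 0 to 1 between day 10 and day 5 in each fraction, 8 to 11, 12 to 18 and 13 to 24 between PT and Total, and 1 to 2 and 0 to 3 for the PT minus Total change. Between the sexes it gave 4 to 8, 0 to 1 and 1 to 6 in PT and 3 to 6, 0 to 2 and 1 to 5 in Total, and 0 to 2 by day 5 and 0 by day 10 for the difference in change. Within a sex it gave 17 to 19 and 10 to 13 in males and 14 to 19 and 19 to 22 in females at the 2 days. With 1 library left out, the change of Gsta1 in PT females ran from -4.79 to 0.052 at day 5 and from -3.78 to 0.91 at day 10, the positive values being those without the contralateral female of replicate 3. Depth limits Slc7a11, Gsta1 and Gsto2 most among the tested genes.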
